A study of Mus musculus with 33 samples.

Results

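Odorant receptor genes of the mouse carry the symbol Olfr and a number that follows their place in the genome. The genes described here are all rows of the deposited expression tables with plain names from Olfr987 to Olfr1303, the numbering of a large class II receptor cluster. There were 172 of them among 889 Olfr genes in either table, and the 717 other Olfr genes are the comparison set. Names with a pseudogene suffix after the number were not members. All 172 were annotated to chromosome 2 by RefSeq (GRCm38.p6), in 2 stretches that lie apart from each other. Olfr987 to Olfr1274 had 155 members listed of 210 annotated genes, and Olfr1275 to Olfr1303 had 17 of 24. The members of both stretches together are called the cluster here. In 232 of 233 neighbouring gene pairs the number rose along the chromosome, so number stands here for position.

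The study asked how Dnmt3a, a de novo DNA methyltransferase, affects the chromatin and RNA of olfactory neurons. Mice of 3 weeks were homozygous null (KO), heterozygous null (Het) or wild type (WT) for Dnmt3a, with no other allele or Cre driver named in the labels. Whole main olfactory epithelium (MOE) came from KO, Het and WT mice that spent 10 min in a clean cage and then 60 min with 80 µL of either a mixture (amyl acetate with the same volumes of acetophenone and octanal; called odor) or water, with 1 library for each genotype and exposure. Mature olfactory sensory neurons (mOSN) were sorted from MOE, and their table holds 1 pooled value per genotype from 2 libraries each.

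Odorant receptors are G protein-coupled receptors that detect odorants and guide sensory axons to their targets in the olfactory bulb. Each mature neuron expresses a single receptor gene from a single allele, and the unchosen receptor genes are held in heterochromatin. Class II receptor clusters are controlled by distant enhancers and by the factors Lhx2, Ebf and Ldb1, so in bulk tissue the RNA of a receptor follows both the number of neurons that chose it and the RNA in each.

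The start windows of 4 members, picked by their level or by p, are printed here. Olfr1196 and Olfr1178 held the highest values of the cluster in WT epithelium with water, Olfr1297 the highest in WT mOSN, and Olfr1216 had the smallest p in the test of the odor effect in KO. Each window runs 5′ to 3′ from 250 bases before to 50 after the RefSeq start, and capitals mark an ATG at that start and matches of the homeodomain motif TAATNA on either strand.
Olfr1196 (GRCm38.p6, chr2:88701278-88701577, minus strand): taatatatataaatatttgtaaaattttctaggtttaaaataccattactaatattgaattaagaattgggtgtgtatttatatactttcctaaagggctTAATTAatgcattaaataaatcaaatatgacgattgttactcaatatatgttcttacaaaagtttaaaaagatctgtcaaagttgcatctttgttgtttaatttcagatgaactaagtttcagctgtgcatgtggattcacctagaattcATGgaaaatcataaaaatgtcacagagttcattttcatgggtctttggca
Olfr1178 (GRCm38.p6, chr2:88390999-88391298, plus strand): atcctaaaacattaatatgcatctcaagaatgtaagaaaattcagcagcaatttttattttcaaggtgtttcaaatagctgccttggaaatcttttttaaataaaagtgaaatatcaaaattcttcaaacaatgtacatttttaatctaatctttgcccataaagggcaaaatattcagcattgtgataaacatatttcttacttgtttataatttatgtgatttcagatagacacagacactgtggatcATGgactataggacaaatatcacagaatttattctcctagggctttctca
Olfr1297 (GRCm38.p6, chr2:111622023-111622322, minus strand): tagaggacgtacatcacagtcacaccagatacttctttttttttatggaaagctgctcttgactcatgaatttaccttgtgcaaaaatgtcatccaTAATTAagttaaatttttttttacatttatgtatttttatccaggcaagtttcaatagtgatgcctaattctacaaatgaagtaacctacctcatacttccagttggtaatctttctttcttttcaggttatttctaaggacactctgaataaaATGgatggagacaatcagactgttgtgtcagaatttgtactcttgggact
Olfr1216 (GRCm38.p6, chr2:89014013-89014312, minus strand): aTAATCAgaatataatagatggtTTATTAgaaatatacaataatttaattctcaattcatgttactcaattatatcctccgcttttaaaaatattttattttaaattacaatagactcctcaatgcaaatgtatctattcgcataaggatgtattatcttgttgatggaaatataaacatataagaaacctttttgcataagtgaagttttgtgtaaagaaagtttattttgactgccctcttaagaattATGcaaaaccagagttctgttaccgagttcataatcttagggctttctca
With an ATG at the annotated start, the last 50 bases of a window lie in the coding sequence and the window need not hold a transcription start. The same held for 72.2% of the 151 member windows. TAATNA, the kind of site bound by Lhx2, was found in 80.8% of member windows, against 63.1% of 793 windows of other Olfr genes and 26.5% of windows of all genes. CCCNNGGG, the core of the Ebf site, was found in 1.99% of member windows, against 3.28% for other Olfr genes and 13.7% for all genes. In windows without an ATG at the start, CCCNNGGG was in 7.14% for members and 7.83% for other Olfr genes, and TAATNA in 88.1% and 64.1%. Median GC content over all windows was 32.0% for members, 36.0% for other Olfr genes and 52.7% for all genes, and an AT-rich motif is met more often in AT-rich sequence. Of the printed windows, Olfr1178 had no TAATNA match and Olfr1216 had 2.

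Values are on the deposited RPKM scale, a read density per gene length and library. They were 11.9 to 13.3 times the RPKM that recovered read counts would give, so they compare genes and libraries but are not strict RPKM. Whole reads were recovered from the MOE table, with 9414478 to 17659233 reads per library, of which the members held 1332 to 5610. The median member had 32 and 15 reads in KO libraries with odor and water, 9 and 16 in Het and 12 and 29 in WT. At that depth many single receptors rest on few reads: 54 of 105 members had under 10 reads in Het with odor. The labels do not say how many animals stand behind a library or whether any are shared, so the p-values speak of the spread among libraries, which may be technical. Dnmt3a itself was at 48.3 and 56.1 in KO, 66.6 and 50.3 in Het and 89.0 and 84.4 in WT epithelium with odor and water, and at 56.2 in KO, 120 in Het and 175 in WT mOSN. One value per gene cannot show a deleted exon. All 12 listed markers of mature sensory neurons were present in both tables.

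In sorted mOSN, 164 members and 652 other Olfr genes were listed. The median member was at 39.1 in KO, 48.9 in Het and 47.6 in WT, and the median other Olfr gene at 40.4 in KO, 49.8 in Het and 47.8 in WT. The medians of the cluster and of the rest of the family were thus close in each genotype. It held 18.7%, 18.8% and 20.2% of the summed Olfr value in KO, Het and WT, with 20.1% of the Olfr rows. The 10 highest of the 164 members held 26.4% of the cluster's sum in KO, 22.2% in Het and 25.2% in WT.

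Olfr1297 (MOR248-4) was the highest member in mOSN, at 660 in KO, 493 in Het and 543 in WT. It was the top member in each genotype. Olfr1100 (MOR206-4) was next in WT but stood at 81.9 in KO, 190 in Het and 410 in WT, a KO to WT ratio of 0.200. Olfr1222 (MOR233-14) was at 232 in KO, 209 in Het and 310 in WT. Olfr1176 (MOR174-5) was at 167 in KO, 321 in Het and 300 in WT, so only KO was low. Olfr1226, Olfr1178, Olfr1196, Olfr1112 and Olfr1264, also among the 10 highest in WT, had KO to WT ratios of 0.375, 0.275, 0.510, 0.604 and 0.731. Olfr1110 (MOR172-4), like Olfr1297, was higher in KO than in WT, at 320 in KO, 329 in Het and 260 in WT. Olfr1019, a receptor known for its response to the fox odor trimethylthiazoline, was at 37.9 in KO, 57.1 in Het and 86.4 in WT.

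KO and WT mOSN differed by a median log2 of -0.38 over the members (log2 of value plus 0.5, KO minus WT), and 108 of 164 were lower in KO (57.2 percent of all genes). The other Olfr genes had a median of -0.35 and all genes -0.13. In KO, 40 members (24.4%) were at least 2-fold lower than in WT, where the share was 18.4% of other Olfr genes and 2.84 percent of all genes. The 5 members (3.05%) at least 2-fold higher in KO were Olfr1013, Olfr1016, Olfr1029, Olfr1057 and Olfr1270, named after their values were seen. That share was 6.75% of other Olfr genes and 17.5 percent of all genes. Among members with at least the median level, the largest ratios of KO to WT included a pair of neighbouring genes of 1 subfamily: Olfr1016 (MOR213-9) was at 76.0 in KO and 28.4 in WT, Olfr1015 (MOR213-3) at 99.3 in KO and 53.0 in WT, and Olfr1002 (MOR175-2) at 108 in KO and 58.3 in WT. The smallest were those of Olfr1100, Olfr1211 (MOR233-21; 52.1 in KO, 196 in WT) and Olfr1178. No test was possible with 1 pooled value per genotype. Both KO libraries were made with NuGEN from 100 ng and both WT libraries with ScriptSeq from 200 ng, so kit and genotype cannot be told apart between KO and WT. The summed markers of mature neurons were at 56327 in KO, 79068 in Het and 83704 in WT mOSN, with 1 of 12 at least 2-fold lower in KO. Markers of other cell types had higher sums in KO than in WT: horizontal basal cell markers summed to 79.1 in KO, 18.6 in Het and 11.3 in WT, with 4 of 5 listed at least 2-fold higher in KO than in WT, and sustentacular markers to 729, 653 and 485 in the same order, with 4 of 10. Bowman gland markers summed to 81.9, 44.9 and 55.5, with 2 of 4, and macrophage markers to 44.5, 56.3 and 38.4, with 2 of 5. The part of these markers in the receptor values was not tested.

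**Figure D1:**
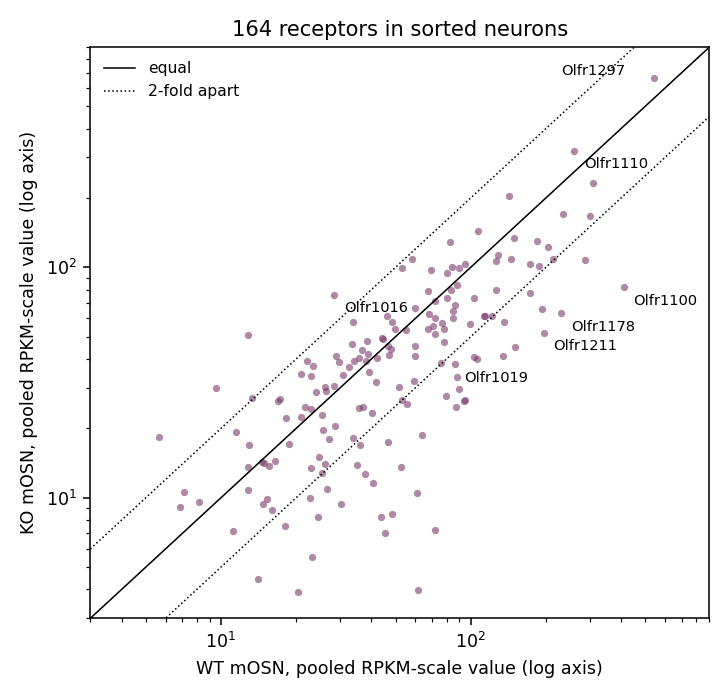
Value of each of the 164 receptors in KO mOSN (vertical) against WT mOSN (horizontal), both on log axes, with 1 point per receptor. Solid and dotted lines mark equal and 2-fold different values. Below the diagonal lie 108 points, and 40 lie under the lower dotted line.

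Het mOSN, which had 1 library of each kit, differed less from WT. The median difference of the members was -0.02 (Het minus WT), with 84 of 164 lower (52.4 percent of all genes). The other Olfr genes had a median difference of 0.05. In Het, 17 members were at least 2-fold lower than in WT (2.5 percent of all genes) and 11 at least 2-fold higher (6.89 percent). These were 10.4% and 6.71% of the members, beside 7.98% and 9.66% of other Olfr genes. Among members with at least the median level, Olfr1016 again had the largest ratio, at 87.6 in Het and 28.4 in WT, followed by Olfr1026 (101 in Het, 48.4 in WT) and Olfr1039 (99.8 in Het, 49.9 in WT). The smallest ratios at that level were those of 3 MOR233 genes. Olfr1211 was at 61.1 in Het and 196 in WT, Olfr1232 at 33.7 in Het and 88.0 in WT, and Olfr1219 at 41.3 in Het and 106 in WT. The same WT column enters the KO and the Het ratios.

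Subfamilies of the cluster, named by their MOR numbers for sequence likeness, differed in mOSN. MOR225 (10 genes between Olfr1178 and Olfr1208) had the highest median of the subfamilies with at least 10 members, at 62.3 in KO, 108 in Het and 135 in WT, with a median KO minus WT difference of -1.21. MOR233 (15 genes, Olfr1211 to Olfr1232) had medians of 57.2 in KO, 61.1 in Het and 87.9 in WT and a difference of -0.82. MOR231 (11 of 13 listed in mOSN, Olfr1238 to Olfr1256) had 32.1 in KO, 51.8 in Het and 87.4 in WT and a difference of -1.06. MOR248 (12 genes between Olfr1277 and Olfr1302) had 35.5 in KO, 56.7 in Het and 56.2 in WT and a difference of -0.44. All of these groups were lower in KO, beside a median of -0.35 over other Olfr genes, and kit and genotype cannot be told apart. The number ranges of MOR225, MOR233 and MOR231 follow each other, with members of other subfamilies among them. MOR213 (6 genes, Olfr1006 to Olfr1016) went the other way, with medians of 44.9 in KO, 55.5 in Het and 25.9 in WT and a difference of 0.78. Members of a subfamily share sequence, and how reads that fit several genes were counted is not given in the sources used here, so values of close paralogs are uncertain. Across neighbouring listed members the levels in WT mOSN had a Spearman correlation of 0.31 over 111 pairs, as a description.

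In whole epithelium, 105 members and 474 other Olfr genes were listed, and 97 members were in both tables. No listed gene had a value of 0 in any library, so receptors without reads in a library are not in the medians below. The median member was at 29.5 in KO with odor and 16.5 in KO with water, at 5.999 in Het with odor and 12.3 in Het with water, and at 9.66 in WT with odor and 24.4 in WT with water. The median other Olfr gene was at 30.3 and 19.6 in KO with odor and water, 7.19 and 13.96 in Het, and 13.7 and 27.1 in WT. The libraries therefore stood in the same order for the cluster and for the rest of the family. KO with odor and WT with water were high, and Het with odor was lowest. Members ranged widely between libraries, with a median of 8.30-fold from the lowest to the highest library, against 7.03-fold for other Olfr genes and 1.82-fold for all genes. KO with odor was the highest library for 55 of the 105 members (17.9 percent of all genes), and Het with odor the lowest for 62 (25.9 percent).

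**Figure D2:**
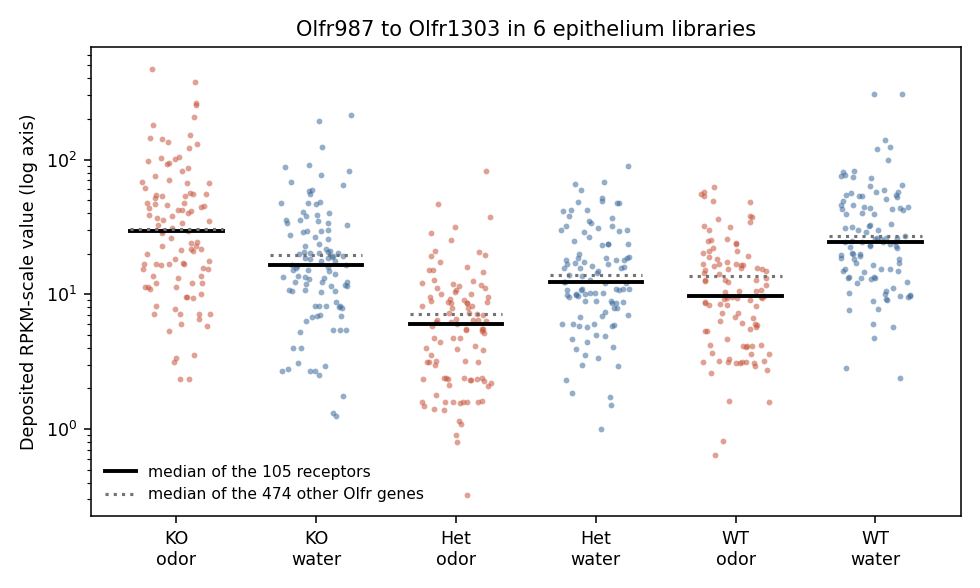
Deposited RPKM-scale value (log axis) of the 105 receptors in each epithelium library, with 1 point per receptor. Solid bars mark the median of these receptors, highest at 29.5 in KO with odor and lowest at 5.999 in Het with odor, and dotted bars mark the median of the 474 other Olfr genes.

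Olfr1196 (MOR225-5) was the most read member. It was at 473 in KO with odor and 215 in KO with water, 46.5 in Het with odor and 66.0 in Het with water, and 62.5 in WT with odor and 308 in WT with water, from 398, 160, 59, 67, 60 and 306 reads. Olfr1178 of the same subfamily (MOR225-6P, where P marks an old pseudogene call), was at 378 and 194 in KO with odor and water, 82.0 and 89.1 in Het and 48.6 and 306 in WT. Both were low in WT with odor and high in KO with odor. For Olfr1196 the exact 95% Poisson interval of the reads was 359.9 to 439.1 in KO with odor and 45.8 to 77.2 in WT with odor, which covers counting error only. Olfr1297 was at 264 and 90.8 in KO with odor and water, 25.4 and 49.6 in Het and 25.2 and 125 in WT. Olfr1100 was at 256 and 123 in KO with odor and water, 14.6 and 59.6 in Het and 57.9 and 121 in WT. Its level in KO with water was close to that in WT with water, whereas in mOSN its ratio of KO to WT was 0.200. Levels in WT mOSN and in WT epithelium with water had a Spearman correlation of 0.39 over 97 members.

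Odor against water asks whether an hour of exposure moves the RNA of these receptors. In WT the members differed by a median log2 of -1.54 (odor minus water), with 93 of 105 lower (50.5 percent of all genes) and 70 at least 2-fold lower (7.09 percent of all genes). The other Olfr genes had a median of -0.97, with 381 of 474 lower, and all genes -0.01. In Het the median was -1.20, with 86 lower (47.5 percent of all genes) and 57 at least 2-fold lower (6.29 percent of all genes), against -0.88 for other Olfr genes. In KO the sign was opposite: the median was 0.76, with 89 higher (52.9 percent of all genes) and 45 at least 2-fold higher (5.4 percent of all genes), and 0.74 for other Olfr genes. Lower in WT and Het and higher in KO described 67 of 105 members and 240 of 474 other Olfr genes (16.6 percent of all genes). The opposite pattern described 0 members and 4 other Olfr genes. These are differences between single libraries with no replicate check.

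**Figure D3:**
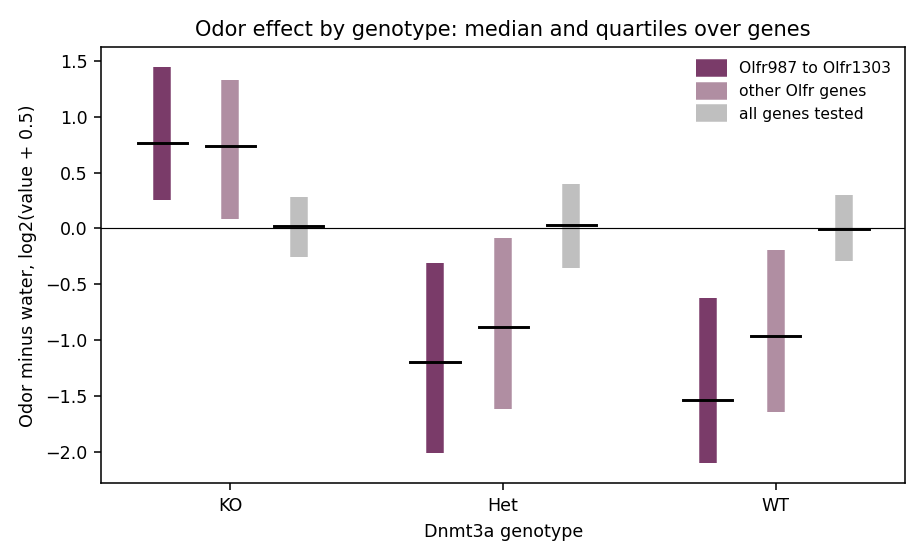
Median (black line) and quartiles (bar) over genes of the odor minus water difference, log2 of value plus 0.5, in each genotype. The medians of the 105 receptors were 0.76 in KO, -1.20 in Het and -1.54 in WT, and those of all genes were near 0.

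The sum of the 12 mature neuron markers moved with the receptors. It was at 27248 and 20300 in KO with odor and water, 5655 and 9962 in Het and 18036 and 24002 in WT. The odor against water direction of this sum was that of the receptors in each genotype. Of the 12 markers, 11 were higher with odor in KO, 1 in Het and 3 in WT. Their median log2 differences were 0.35, -0.39 and -0.21 in that order. Omp, the olfactory marker protein, was at 5752 and 3296 in KO with odor and water, 249 and 1582 in Het and 2717 and 5962 in WT. Fewer mature neurons and less receptor RNA per neuron cannot be told apart in such samples, and the part of these markers in the results was not tested. The members' summed value as a percentage of the marker sum was 20.7% and 13.7% in KO with odor and water, 15.8% and 19.3% in Het, and 8.28% and 16.7% in WT. Set against the markers, WT with odor was thus the lowest library and Het with odor was not. For other Olfr genes the percentages were 79.0% and 65.8% in KO with odor and water. They were 91.9% and 93.2% in Het and 52.0% and 75.2% in WT, so WT with odor was the lowest there too. Markers of other cell types moved too: the sum over 10 sustentacular genes was at 28228 and 30622 in KO with odor and water, 35194 and 29249 in Het and 36160 and 25024 in WT. Immature neuron markers summed to 3586 and 4155 in KO with odor and water, 5999 and 4375 in Het and 3637 and 4807 in WT.

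The cluster's share of the reads on listed receptors differed between odor and water libraries. No listed gene had a value of 0 in any library, so receptors without reads in a library are not in these shares. It was 19.3% in KO with odor (95% Wilson interval 18.8 to 19.7) and 16.7% in KO with water (16.1 to 17.2). It was 13.0% in Het with odor (12.4 to 13.7) and 16.2% in Het with water (15.7 to 16.9), and 13.0% in WT with odor (12.5 to 13.6) and 16.9% in WT with water (16.5 to 17.3). The 3 water libraries lay together, with overlapping intervals, while the odor share was above its water library in KO and below it in Het and WT, with no overlap in any genotype. Leaving out the 10 most read members gave 13.1% and 11.1% in KO with odor and water, 9.65% and 12.7% in Het and 9.71% and 12.2% in WT, in the same directions. The 6 shares stood in the same order as the total of Olfr reads, which was 29084 and 15459 in KO with odor and water, 10249 and 14461 in Het and 13353 and 27985 in WT, and the part of that total in the shares was not tested. The intervals cover counting error only, and with 1 library per group the spread between animals is unknown.

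**Figure D4:**
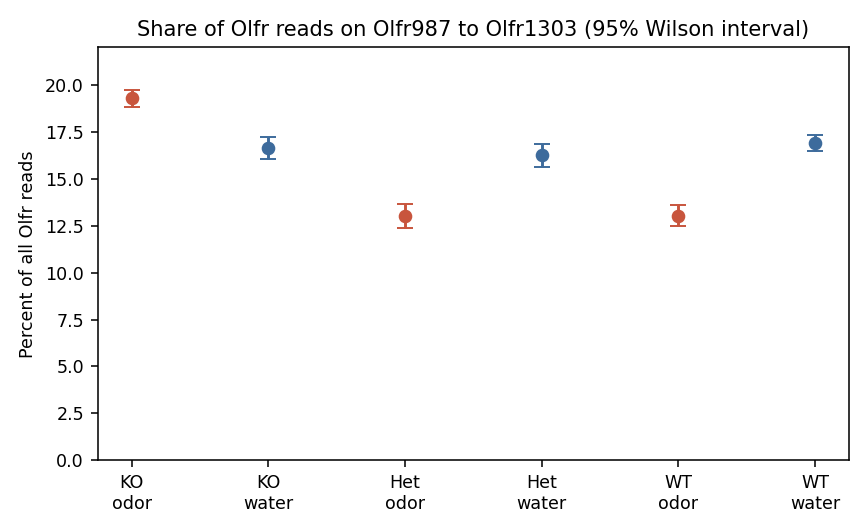
Percent of the reads on listed Olfr genes (these 105 receptors and 474 others) that fell on the 105 receptors in each epithelium library, with 95% Wilson intervals from counting error. The odor library is above its water library in KO (19.3% and 16.7%) and below it in Het (13.0% and 16.2%) and WT (13.0% and 16.9%).

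The test of odor against water, limma on log2 values with genotype as a block, had the 3 genotypes in place of replicates. An odor response that differs by genotype counts as error in it. The test called 0 members at an adjusted p of 0.05 (0.0137 percent of all genes called), with a smallest adjusted p among members of 0.882. At an unadjusted p under 0.05 it had 1 member higher (3.01 percent of all genes) and 6 lower (1.86 percent). The 6 were 5.71% of the members, beside 7.38% of other Olfr genes lower at that p. In limma-voom on the recovered reads, 102 members were tested and 0 called (0.0415 percent of all genes). It had 0 higher (1.61 percent) and 2 lower (4.27 percent) at an unadjusted p under 0.05. Odor and water values overlapped for nearly all members: 2 members had all 3 odor values below all 3 water values (4.75 percent of all genes), Olfr1214 and Olfr1277 (named after their values were seen), and 0 had them above (7.77 percent). The smallest p among the better expressed members that were higher with odor was that of Olfr1193 (MOR226-1), at 70.4 and 18.6 in KO with odor and water, 11.7 and 6.81 in Het and 38.1 and 30.8 in WT. It was higher with odor in each genotype, with a log2 difference of 0.98 ± 0.36 (SE) and an adjusted p of 0.882. Olfr1090 (0.76 ± 0.36) and Olfr1123 (0.42 ± 0.29) followed. On the lower side, Olfr1097 (MOR206-2) was at 34.0 and 40.6 in KO with odor and water, 9.13 and 16.0 in Het and 9.66 and 40.4 in WT, a difference of -1.01 ± 0.39. Its odor values were below water in each genotype, but the groups overlapped. Olfr1226 (-0.91 ± 0.41) was also below water in each genotype, and Olfr1261 (-1.08 ± 0.42) was below it in Het and WT but not in KO, at 41.2 with odor and 39.9 with water. The members' median odor effect of -0.57 was -1.35 without either KO library, -0.27 without either Het library and -0.11 without either WT library. The count of 6 lower at an unadjusted p under 0.05 was 55 without KO with odor (4.64 percent of all genes) and 58 without KO with water (4.64 percent), and 2 without Het with odor or with water (1.11 and 1.12 percent).

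The test of whether odor acted differently in KO than in the other genotypes called 0 members (0.0 percent of all genes) with a smallest adjusted p of 0.232. At an unadjusted p under 0.05 it had 54 members higher (3.75 percent of all genes) and 0 lower (3.36 percent), and voom had 0 calls (0.0 percent), 33 of 102 higher (3.32 percent) and 0 lower (2.18 percent). The median difference was 1.98 over the members, 1.59 over other Olfr genes and -0.00 over all genes. The other Olfr genes had 191 of 474 higher at that p, so the cluster's share of 51.4% stood beside 40.3% for the rest of the family. The residual of this model holds only how far the odor effects in WT and Het differ. Its SE and p therefore hold no measured spread of the odor effect in KO, and all receptors share the same KO libraries. Olfr1216 (MOR233-9) led, at 207 and 35.3 in KO with odor and water, 11.1 and 37.8 in Het and 16.8 and 54.9 in WT, from 173, 26, 14, 38, 16 and 54 reads. KO with odor stood alone, and the difference of odor effects was 4.23 ± 0.44 (SE, log2; adjusted p = 0.232). Olfr1160 (MOR173-1) was at 66.6 and 10.6 in KO with odor and water, 2.33 and 34.0 in Het and 8.20 and 53.5 in WT, a difference of 5.72 ± 0.67 that rests on 3 reads in Het with odor. Olfr1047 (MOR188-3) was at 67.8 and 19.9 in KO with odor and water, 10.1 and 48.5 in Het and 23.6 and 81.2 in WT, a difference of 3.73 ± 0.49. In these 3 genes KO with water was below WT with water. Olfr1123 (MOR264-17) was the only better expressed member with a negative estimate, -0.27 ± 0.65. With each library centred on the median of other Olfr genes, 15 members were called, 14 higher and 1 lower. Of the 474 other Olfr genes, 22 were called higher and 19 lower. Of all genes 51.1 percent were called, 45 higher and 7422 lower, as the centring subtracts the receptor shift from every gene.

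**Figure D5:**
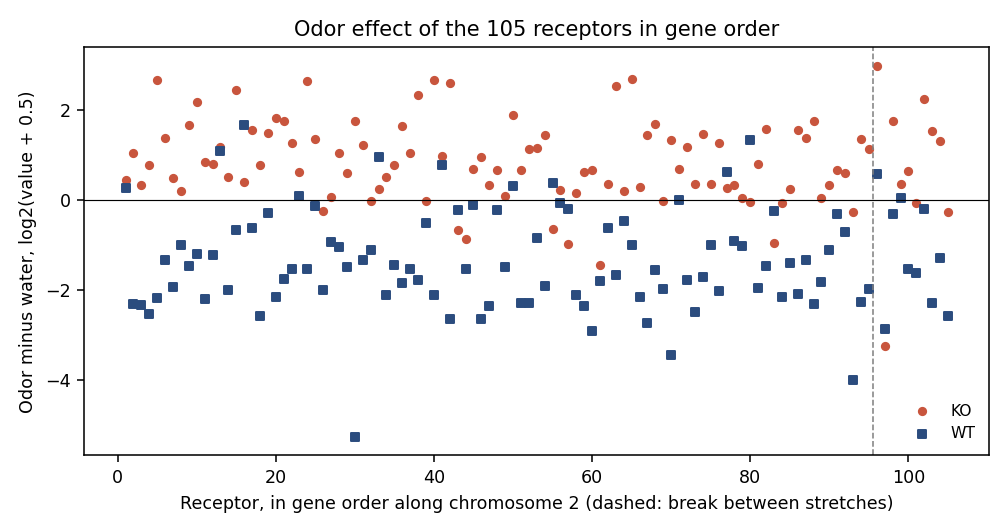
Odor minus water difference, log2 of value plus 0.5, of the 105 receptors in KO (circles) and WT (squares), in gene order along chromosome 2, with a dashed line between the 2 stretches. KO points lie mostly above 0 and WT points mostly below, in both stretches.

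The odor effect was also set beside the place of the members in the cluster, without a test. In the longer stretch, with 95 members in the MOE table, the median odor effect was 0.76 in KO, -1.46 in Het and -1.54 in WT, and in the shorter stretch, with 10, it was 0.97 in KO, -0.50 in Het and -1.42 in WT. Neighbouring members had a Spearman correlation of -0.14 in their WT odor effect over 57 pairs. With a median of 12 reads per member in WT with odor, a pattern by place could be missed. Among subfamilies with at least 8 members in the MOE table, MOR233, MOR231, MOR248 and MOR225 had median effects of 0.69, 0.36, 0.49 and 0.66 in KO and of -1.68, -1.59, -1.58 and -1.91 in WT. MOR245, with only 3 members there, was the subfamily of at least 3 whose WT median was above 0, at 1.75 in KO, -0.55 in Het and 0.57 in WT.

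KO against WT in the epithelium had opposite directions with water and with odor, each from single libraries. With water the members had a median difference of -0.53 (KO minus WT), with 74 of 105 lower in KO (50.9 percent of all genes) and 33 at least 2-fold lower (5.75 percent of all genes), and other Olfr genes -0.47. With odor the median was 1.55, with 92 higher in KO (50.1 percent of all genes) and 71 at least 2-fold higher (6.23 percent of all genes), and other Olfr genes 1.19. Over both exposures limma with exposure as a block called 0 members (0.0 percent of all genes). At an unadjusted p under 0.05 it had 7 higher (1.27 percent) and 3 lower (0.966 percent). These were 6.67% and 2.86% of the members, beside 8.23% and 2.95% of other Olfr genes. With voom there were 0 calls (0.0 percent), 3 of 102 higher (0.899 percent) and 1 lower (0.546 percent). The 3 lower by limma, named after their values were seen, were Olfr1133, Olfr1170 and Olfr1215, all at 2 to 8 reads in the KO libraries. Olfr1170 was at 2.36 and 4.01 in KO with odor and water and at 14.5 and 17.0 in WT, without overlap. The median difference of 0.63 was decided by single libraries: it was -0.31 without KO with odor, 1.38 without KO with water, 0.01 without WT with odor and 1.14 without WT with water. At an unadjusted p under 0.05, 50 members were higher without KO with water (3.05 percent of all genes) and 29 without WT with water (2.59 percent), while 20 were lower without KO with odor (1.88 percent) and 8 without WT with odor (2.77 percent). Olfr1123 had the smallest p on the higher side, at 40.4 and 34.0 in KO with odor and water and 19.2 and 9.78 in WT. The KO values did not overlap the WT values, with a difference of 1.40 ± 0.36 and an adjusted p of 1.00. Olfr1251 (2.01 ± 0.65), at 144 and 82.0 in KO with odor and water and 13.3 and 53.0 in WT, and Olfr1143 (2.24 ± 0.76), at 53.4 and 25.6 in KO and 4.17 and 13.1 in WT, did not overlap either. Olfr1123, Olfr1251 and Olfr1143 were picked by p, so their lack of overlap adds nothing to it. Among the better expressed members, those lower in KO by estimate with the smallest p were Olfr1020 (-0.79 ± 0.67), Olfr1155 (-1.27 ± 1.2) and Olfr1034 (-0.63 ± 0.74), each about as large as its error. Each turned positive without KO with water, to 0.47, 1.097 and 0.70.

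Het against WT was lower for most members at either exposure. With water the median was -1.01 (Het minus WT), with 92 of 105 lower (50.6 percent of all genes) and 53 at least 2-fold lower (3.86 percent of all genes), and with odor it was -0.81, with 77 lower (47.9 percent) and 48 at least 2-fold lower (7.05 percent). The other Olfr genes had -0.97 with water and -0.81 with odor. limma called 0 members (0.0 percent of all genes), with a smallest adjusted p of 0.706. At an unadjusted p under 0.05 it had 0 higher (2.71 percent) and 16 lower (3.99 percent). Those 16 were 15.2% of the members, beside 21.7% of other Olfr genes lower at that p. With voom there were 0 calls (0.0 percent), 0 higher (3.17 percent) and 7 of 102 lower (5.23 percent). The count of 16 rested on single libraries: it was 7 without Het with odor (1.64 percent of all genes), 10 without WT with water (2.88 percent), 24 without Het with water (6.74 percent) and 35 without WT with odor (2.63 percent). It was 35 without KO with odor (5.33 percent) and 34 without KO with water (5.28 percent). The members' median estimate was -0.80, and -0.33 without WT with water, -0.45 without Het with odor, -1.28 without Het with water and -1.46 without WT with odor. For 20 members both Het libraries were below the other 4 libraries (11.6 percent of all genes), beside 131 of 474 other Olfr genes. Olfr1247 (MOR231-6) was at 5.999 and 14.4 in Het with odor and water and at 30.1 and 57.3 in WT, a difference of -2.10 ± 0.43. Olfr1197 (MOR225-14) was at 17.3 and 14.8 in Het with odor and water and 55.2 and 99.6 in WT (-2.18 ± 0.47), and Olfr1193 at 11.7 and 6.81 in Het and 38.1 and 30.8 in WT (-1.88 ± 0.44). In these 3 genes Het and WT did not overlap, which adds nothing to the p by which they were picked. On the higher side Olfr1228 (1.12 ± 1.04), Olfr1143 (0.60 ± 0.76) and Olfr1032 (0.49 ± 1.04) had estimates near their error. All 12 mature neuron markers were also lower in Het, each at an unadjusted p under 0.05 and with 0 called, and their part in the receptor result was not tested.

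Genes that act with the receptors were read from lists. Of 27 regulators of receptor choice, among them Lhx2, Ebf1 to Ebf4 and Ldb1, all 27 were tested and limma called 0 in each of the 4 tests. At an unadjusted p under 0.05 there was 1 lower for odor, Ddit3 (1.86 percent of all genes). For KO against WT there were 0 (1.27 percent higher and 0.966 percent lower). Ebf4 and Adcy3 were lower in Het than in WT (3.99 percent), and Hspa5 was lower for the odor effect in KO (3.36 percent). Adcy3 is also a listed mature neuron marker and Lhx2 a listed immature neuron marker. Lhx2 was at 277 and 354 in KO with odor and water, 311 and 245 in Het and 282 and 364 in WT. Of 20 genes of receptor trafficking and odor transduction, 19 were tested and 0 called. At an unadjusted p under 0.05, 16 were lower in Het than in WT (3.99 percent of all genes). Several genes of this list, among them Cnga2, Adcy3, Gnal and Rtp1, are also among the mature neuron markers, so the lists overlap. For the odor effect in KO, 19 of 19 had a positive estimate, with a median of 0.47 beside 1.98 for the cluster. The trace amine-associated receptors, a separate receptor family of the same epithelium, summed to 383 and 202 in KO with odor and water, 85.5 and 95.8 in Het and 173 and 241 in WT over 11 listed genes, with 0 called.

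The number range begins at a change of chromosome and ends within chromosome 2. Olfr986, just below the range, is on chromosome 9 and was at 15.9 in KO, 42.1 in Het and 28.9 in WT mOSN. Olfr987, the first member, was at 40.2 in KO, 28.1 in Het and 35.8 in WT mOSN. Olfr1302, the last listed member, was at 66.6 in KO, 64.4 in Het and 59.5 in WT, and Olfr1305, the next listed number on chromosome 2, at 25.2 in KO, 27.1 in Het and 28.0 in WT. In the MOE table the first member was Olfr994, at 47.5 and 35.0 in KO with odor and water, 3.15 and 18.7 in Het and 36.5 and 30.2 in WT. Olfr1302 was at 15.4 and 18.8 in KO with odor and water, 3.14 and 2.95 in Het and 7.27 and 46.1 in WT, and the nearest number above in that table, Olfr1317, at 9.44 and 34.8 in KO, 1.57 and 8.81 in Het and 21.7 and 7.998 in WT.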

How the data were processed

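RNA-seq of 12 of 33 samples was analysed; the other 21 samples are not analysed here. The deposited tables give RPKM, the authors' name for their values; per the submitters' processing notes Bowtie2 2.1, STAR 2.3.0, Picard 1.64, featureCounts and DESeq were used with the builds mm9 and NCBIM37. Their order and the normalization formula are not given in the sources used here. Neither table holds a value of 0, and 7 mOSN rows without values were left out. Whole reads were recovered from the MOE values for 99.9% of genes to within 0.0001 of a whole number, up to a divisor shared by a gene's 6 counts. For 9 receptors, 1 of them a member, the counts were multiplied by a whole factor because the implied length was short for a receptor gene.

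A pseudocount of 0.5 was added before taking log2, and a gene needed a value of 0.5 in 2 columns or more (14602 genes of the MOE table). For the MOE, limma 3.58.1 (R 4.3.3) was used (empirical Bayes with trend, two-sided, Benjamini-Hochberg adjusted p over all genes, threshold 0.05), with an additive model of genotype and exposure (2 residual degrees of freedom). A response that depends on genotype counts as error in that model. A second model added a KO-by-odor term, which assumes that Het and WT respond alike and leaves 1 residual degree of freedom. The scripts were tested on simulated data. The mOSN columns hold 1 pooled value per genotype, so the planned limma test was replaced by differences. A fold change on this scale understates that of low genes. The named receptors were the 10 highest in WT mOSN, Olfr1019, the ends of the range, the 3 with the smallest p in each direction of each MOE test and the 3 with the largest fold in each direction of each mOSN comparison, among members at or above the median level. Alternatives were other pseudocounts, filters, rescaling, voom, no block and leaving out each library. Start windows came from RefSeq (GRCm38.p6), where 149 of 172 members had a window. Members and lists were chosen with earlier results of these data known.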

Additional observations from a re-analysis of the deposited data

Results flagged for a closer look

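The median odor effect of the 105 receptors in the epithelium (odor minus water, log2 of value plus 0.5) was 0.76 in KO, -1.20 in Het and -1.54 in WT, opposite in direction between KO and the other genotypes. The difference between these medians was not tested, since each rests on 1 odor and 1 water library. For single receptors limma tested the difference and called 0 of 105.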

How the results depend on the processing

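The cluster's median odor effect kept its direction under each pseudocount, filter and rescaling tried, at 0.72 to 1.00 in KO, -1.32 to -1.14 in Het and -1.57 to -1.44 in WT. The median KO minus WT difference ran from 1.48 to 1.90 with odor, -0.54 to -0.52 with water and -0.39 to -0.24 in mOSN. With median-ratio rescaling the median Het minus WT difference in mOSN was 0.0017 instead of -0.02, and with a pseudocount of 1 the cluster's median odor effect in KO minus that of other Olfr genes was -0.0074 instead of 0.02, so neither has a direction. Centring each library on the median of other Olfr genes, an alternative chosen after seeing the data, gave 15 calls in the test of the odor effect in KO, against 0. Of these, 14 were higher, while the 51.1 percent of all genes called were nearly all lower. Counts of calls were 0 under all other settings run.

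Leaving out 1 library at a time, the log2 estimate ran from -2.05 to 0.47 for Olfr1020, -3.63 to 1.097 for Olfr1155 and -1.96 to 0.70 for Olfr1034 (KO against WT), from -0.66 to 2.91 for Olfr1228, -0.28 to 1.48 for Olfr1143 and -0.95 to 1.92 for Olfr1032 (Het against WT), and from -0.70 to 0.16 for Olfr1123 (odor effect in KO); the cause was not tested. The test of the odor effect in KO has no residual degrees of freedom without a library, so it then gives values only. Low read counts limit single receptors, most of all in Het with odor. No paired analysis was possible because the mOSN columns are pooled over replicate numbers and the MOE has 1 library per group, so that no number could serve as a block; the odor test compares odor with water within each genotype.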

Other observations

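Some receptors outside the rule for named genes had larger differences and are given here as values, chosen after their values were seen. Olfr1109 (MOR172-5) was at 23.9 and 6.78 in KO with odor and water, 3.17 and 13.9 in Het and 3.15 and 139 in WT, from 20, 5, 4, 14, 3 and 137 reads, so that WT with water stood alone; in mOSN it was at 28.8 in KO, 45.5 in Het and 24.1 in WT. Olfr1277 was at 2.33 and 26.5 in KO with odor and water and at 3.07 and 25.7 in WT, and at 7.28 in KO and 72.2 in WT mOSN. Its odor effect in KO was -3.25, the lowest of the 105 receptors, where the median was 0.76. Olfr1042 had the highest odor effect in WT, 1.67, at 15.3 and 11.6 in KO with odor and water, 8.15 and 12.7 in Het and 31.4 and 9.53 in WT. Olfr1118 had the lowest KO minus WT difference in mOSN, -3.80, at 3.98 in KO and 61.7 in WT, while in the epithelium with water it was at 11.5 in KO and 13.4 in WT.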
